A study of Mus musculus with 6 samples.

Results

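Fibroblasts signal to myeloid cells through secreted growth factors, and 8 such genes are described here in mouse 3T3 fibroblasts: Csf1, Csf2, Csf3, Il34, Kitl, Mif, Tslp and Il33. They were taken by name from the 41819 genes of the count table. Poly(A) RNA was measured by RNA-seq in 6 dishes of 3T3 cells, 3 control and 3 hPARG, to ask what human PARG (hPARG), an enzyme that removes poly(ADP-ribose) from proteins, does to the RNA of fibroblasts. All 6 dishes came from a single puromycin-selected clone that carries a lentiviral TetOne cassette with human PARG cDNA and the fluorescent protein mClover3. The hPARG dishes were grown with 500 ng/ml doxycycline for 72 h and the control dishes for the same time without it. The groups therefore differ in the drug as well as in hPARG, and the 2 cannot be told apart here. The labels call the cells malignant. They name wells as the culture vessel where the study's methods for the RNA-seq samples name dishes, and dish is the word kept below. Since all dishes hold 1 clone, p-values measure the spread between cultures of that clone.

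Csf1 (macrophage colony-stimulating factor) and Il34 encode separate ligands of the same receptor, CSF1R, which macrophages need to survive. Csf2 (GM-CSF) and Csf3 (G-CSF) drive the growth of granulocytes and macrophages, and Kitl encodes stem cell factor, the ligand of KIT on mast cells and blood progenitors. The other members are cytokines rather than growth factors in the strict sense. Mif encodes macrophage migration inhibitory factor, which acts through CD74 and CD44. Tslp encodes thymic stromal lymphopoietin, which binds CRLF2 paired with IL7R, and Il33 encodes an alarmin that binds ST2, the product of Il1rl1.

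Between 21619908 and 25263818 counts were assigned to genes in a dish. A count of 3 or less was taken as the floor of detection, which corresponds to between 0.119 and 0.139 on the CPM scale, counts relative to the total of a dish, and covers counting error only. The dishes numbered 2 stood apart from the rest on one side, and control dish 3 lay far out on the other. Principal component analysis of log2 CPM placed control dish 2 at 21.6 and hPARG dish 2 at 24.7 on its leading component (42% of variance). Control dish 1 was at -3.17, hPARG dish 3 at -5.29, hPARG dish 1 at -10.4 and control dish 3 at -27.4. Differences between the groups are therefore given over all dishes, with a term for the dishes numbered 2 in the model, and without both of these dishes. No term was fitted for control dish 3. RNA of the hPARG cassette was not analysed here, and the endogenous gene Parg differed by 0.039 on the log2 scale (SE, the standard error, 0.112; false discovery rate (FDR) = 0.999).

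The label of the cells was checked against fibroblast markers, and all 8 of 8 were present, with Vim the most abundant at a mean of 1548 RPKM (the deposited values scaled to gene length and library total). Of 7 macrophage markers, Adgre1 was at 0 in all dishes, Tyrobp had at most 1 count and Ptprc at most 5, Itgam had between 4 and 8 counts, Csf1r had at most 8, and Cd14 and Lyz2 were present. Summed over the 7, macrophage markers stood at 18.0, 13.5 and 17.9 CPM in control dishes 1 to 3 and 16.1, 10.5 and 17.4 CPM in hPARG dishes 1 to 3, and Cd14 was the most abundant. Of 5 mast cell and granulocyte markers, Cpa3, Mcpt4, S100a9 and Elane were at 0 in all dishes, and S100a8 did not exceed 2 counts. The 4 epithelial markers did not sum above 0.518 CPM in any dish, nor the 3 endothelial markers above 0.707 CPM.

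The 8 genes differed widely in level. Per length, the order of the means was Mif, Csf1, Kitl, Il34, Tslp, Csf2, Il33 and Csf3, with means over the 6 dishes of 566, 143, 20.7, 6.95, 1.88, 0.143, 0.0602 and 0.00927 RPKM. The lowest dish of the higher gene lay above the highest dish of the next gene for 5 of the 7 neighbouring pairs. The ranges overlapped between Csf2 and Il33 and between Il33 and Csf3, so the order of these 3 is not beyond their spread. Mif held 76.6% of the summed RPKM of the 8 genes and Csf1 19.4%. Of the tested genes, 98.9% had a mean RPKM below that of Mif, 96.5% below that of Csf1 and 20.1% below that of Tslp.

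**Figure D1:**
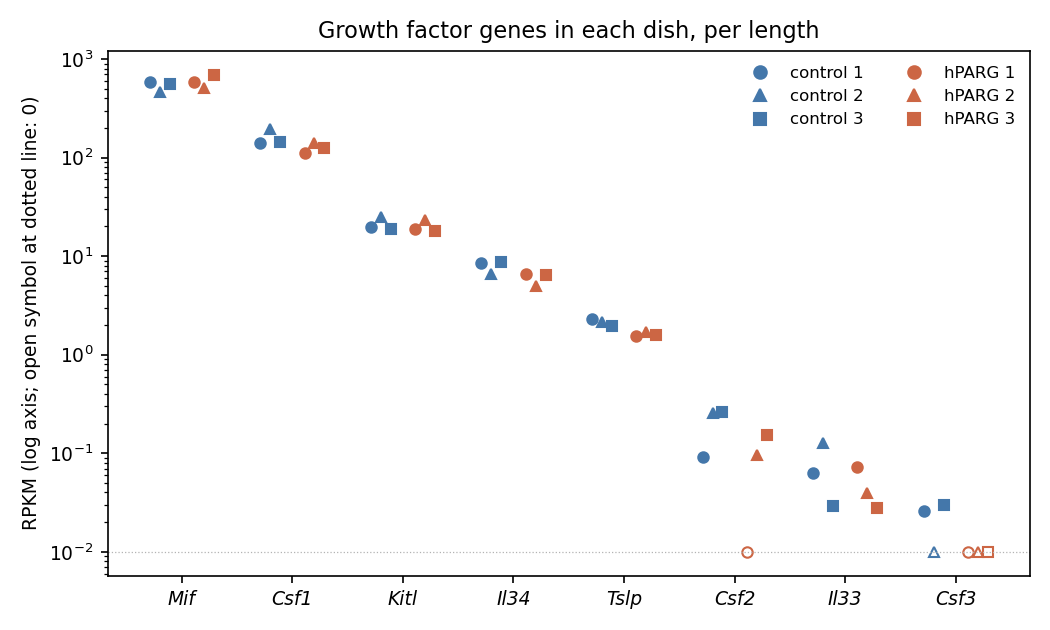
RPKM of the 8 growth factor genes in each of the 6 dishes, on a log axis, with control in blue and hPARG in orange and a symbol for each dish number; an open symbol on the dotted line marks a value of 0. Mif (463 to 695 RPKM) and Csf1 (112 to 196 RPKM) lie far above the rest, and Csf2, Il33 and Csf3 do not exceed 0.263 RPKM.

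The upstream sequences of 3 of these genes are printed, those of a colony-stimulating factor with a high level (Csf1), of one near the floor (Csf2) and of the most abundant member (Mif). In the RefSeq table of promoters (GRCm38.p6), 5 of the 8 members matched an entry, and the windows of Csf3, Il34 and Tslp were not used here. Each line holds the 250 bases before the start in that table, 5′ to 3′ on the strand of the gene, all of them minus: chr3:107760470-107760719 for Csf1, chr11:54249900-54250149 for Csf2 and chr10:75860278-75860527 for Mif. The gene boundaries in GENCODE, given below for each gene, begin right after the window for Csf1 (0 bases between), 232 bases after it for Csf2 and 37 bases after it for Mif, so the Csf2 window is not the stretch next to the GENCODE start. Capitals mark matches to the motifs searched, which were GGGANNNNCC (a loose form of the NF-kB consensus), TGACGTCA (the cAMP response element), TGANTCA (AP-1), TATAAA and GGGCGG (GC box), on both strands.
Csf1: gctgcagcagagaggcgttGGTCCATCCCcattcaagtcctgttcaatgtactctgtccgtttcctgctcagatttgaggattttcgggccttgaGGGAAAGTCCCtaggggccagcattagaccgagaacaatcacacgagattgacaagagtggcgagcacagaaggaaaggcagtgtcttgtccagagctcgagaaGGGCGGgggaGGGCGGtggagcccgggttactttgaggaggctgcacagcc
Csf2: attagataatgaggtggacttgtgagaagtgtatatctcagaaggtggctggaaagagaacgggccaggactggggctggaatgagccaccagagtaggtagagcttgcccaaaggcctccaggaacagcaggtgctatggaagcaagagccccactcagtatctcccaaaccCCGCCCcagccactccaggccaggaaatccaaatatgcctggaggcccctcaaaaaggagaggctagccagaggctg
Mif: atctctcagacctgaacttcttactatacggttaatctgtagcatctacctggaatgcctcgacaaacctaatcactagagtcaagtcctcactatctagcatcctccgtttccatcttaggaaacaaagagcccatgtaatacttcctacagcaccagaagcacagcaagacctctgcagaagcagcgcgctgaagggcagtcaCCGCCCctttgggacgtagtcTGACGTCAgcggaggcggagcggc
The Csf1 window held GGGANNNNCC or its reverse complement at 3 positions, 2 of which overlap each other between -155 and -145, and 2 GC boxes at -51 and -41 from the RefSeq start. The Csf2 window held 1 match, a GC box read on the opposite strand at -77 to -72. The Mif window held a GC box, also on the opposite strand, at -45 to -40 and TGACGTCA at -24 to -17. No matches to different motifs overlapped in these 3 windows. Of 32851 upstream windows in the table, 17.6% held GGGANNNNCC, 1.55% TGACGTCA, 6.75% TGANTCA, 12.4% TATAAA and 32.7% GGGCGG. The Kitl window, not printed here, also held GGGANNNNCC or its reverse complement, from -185, -153 and -152. A match describes letters and no binding was measured. A tie between matches and the level or difference of a gene was not tested.

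Csf1 (ENSMUSG00000014599, chromosome 3, 107741048 to 107760469, minus strand of GRCm38) was the member with the most counts. Its level was 731, 995 and 789 CPM in control dishes 1 to 3 and 596, 739 and 688 CPM in hPARG dishes 1 to 3, after normalization by trimmed mean of M-values (TMM). In each group the highest dish was number 2, and hPARG dish 2 lay just above control dish 1, so the groups overlapped. The mean was 838 ± 139 CPM (SD, n = 3) in control and 674 ± 72.3 CPM (SD, n = 3) in hPARG cells. The log2 fold change of -0.31 (SE 0.149, 95% confidence interval -0.66 to 0.031) did not pass an FDR of 0.05 (FDR = 0.999). With a term for the dishes numbered 2 it was -0.31 with a narrower interval, from -0.47 to -0.14 (FDR = 0.0796). Without these dishes it was -0.24 (FDR = 0.732), and within the dishes numbered 2 alone the log2 ratio was -0.43, with no test. With only control dish 2 left out, the log2 fold change was -0.17. In bulk RNA, fewer cells that make a transcript and less of it per cell cannot be told apart.

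Il34 (ENSMUSG00000031750, chromosome 8, 110741829 to 110805924, minus strand), which encodes the other ligand of CSF1R, stood far lower per length than Csf1, at 4.97 to 8.78 RPKM. Its level was 16.5, 12.5 and 18.0 CPM in control dishes 1 to 3 and 13.2, 9.77 and 13.2 CPM in hPARG dishes 1 to 3. Here the dishes numbered 2 were the lowest of each group, and control dish 2 lay below hPARG dishes 1 and 3. The log2 fold change was -0.38 (SE 0.179, interval -0.79 to 0.036, FDR = 0.999), with an unadjusted p in the edgeR fit of 0.068. With the term for the dishes numbered 2 it was -0.38 (interval -0.57 to -0.18, FDR = 0.0697), without them -0.38 (FDR = 0.419), and within them -0.35. With single dishes left out it was -0.25 without hPARG dish 2 and -0.52 without control dish 2. The estimates for Csf1 and Il34 thus had the same sign in each of these fits. Il34 shares 22 exon bases with the antisense gene Gm15894 and 75 with Gm15895, which had 0 counts in every dish. Whether counting used strand is not given, so these 0 counts do not show that no antisense reads were counted for Il34.

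Csf2 and Csf3, the granulocyte-macrophage and granulocyte factors, were at or near the floor. Csf2 (ENSMUSG00000018916, chromosome 11, 54247271 to 54249667) had 2, 5 and 5 counts in control and 0, 2 and 3 counts in hPARG dishes 1 to 3. It shares 96 exon bases with the antisense gene Gm12223, which had 0 counts in every dish, with the same limit on strand. Csf3 (ENSMUSG00000038067, chromosome 11, 98701263 to 98703629) had 1, 0 and 1 counts in control and 0 in each hPARG dish. Il33 (ENSMUSG00000024810, chromosome 19, 29925114 to 29960718) had between 2 and 9 counts in every dish. These 3 genes did not pass the filter on low counts, no difference between the groups was detectable at this depth, and no fold is given for them.

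Kitl (ENSMUSG00000019966, chromosome 10, 100015630 to 100100416, plus strand) was the third member in level and the closest to equal between the groups. Stem cell factor RNA stood at 123, 150 and 122 CPM in control and 120, 145 and 117 CPM in hPARG dishes 1 to 3. The spread came from the dishes numbered 2, which were the highest of both groups. The log2 fold change was -0.048 (SE 0.131, interval -0.35 to 0.25, FDR = 0.999), and with the term for the dishes numbered 2 the interval was -0.17 to 0.073 (FDR = 0.746). Without these dishes it was -0.039 (FDR = 0.976), and within them -0.056. The sign was positive without control dish 2 (0.058) and without hPARG dish 3 (0.0085).

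Mif (ENSMUSG00000033307, chromosome 10, 75859353 to 75860240, minus strand) was the single tested member with a higher mean in hPARG cells. It stood at 341, 263 and 340 CPM in control and 347, 299 and 428 CPM in hPARG dishes 1 to 3. hPARG dish 3 was the highest, the dishes numbered 2 were the lowest of each group, and the groups overlapped. The log2 fold change was 0.19 (SE 0.164, interval -0.19 to 0.57, FDR = 0.999), and with the term for the dishes numbered 2 it was 0.19 (interval 0.020 to 0.35, FDR = 0.280). Without these dishes it was 0.19 (FDR = 0.817), and within them 0.19. The estimate depended on single dishes, at 0.039 without hPARG dish 3 and 0.073 without control dish 2. The value is uncertain in a further way, because Mif shares its sequence with other annotated genes. Of those that match a Mif transcript at 90% identity or more, C230062I16Rik and Gm16302 had 0 counts in every dish, and 5 more were not analysed here. The methods set a maximum number of hits per read. How reads within that maximum were divided between copies, and whether strand was used in counting, is not given in the sources used here.

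Tslp (ENSMUSG00000024379, chromosome 18, 32815383 to 32819797, plus strand) was the least abundant member that could be tested, with 42 to 72 counts in a dish. It stood at 2.81, 2.54 and 2.45 CPM in control and 1.93, 2.06 and 2.02 CPM in hPARG dishes 1 to 3, so that each hPARG dish lay below each control dish. The log2 fold change was -0.38 (SE 0.188, interval -0.81 to 0.059, FDR = 0.999), and it did not gain precision with the term for the dishes numbered 2 (SE 0.235, FDR = 0.485). Without these dishes it was -0.41 (FDR = 0.885), and within them -0.30. Of the 5 tested members, 1 was lower in all hPARG dishes, against 6.00% of all tested genes, and 0 were higher in all hPARG dishes, against 3.61%.

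**Figure D2:**
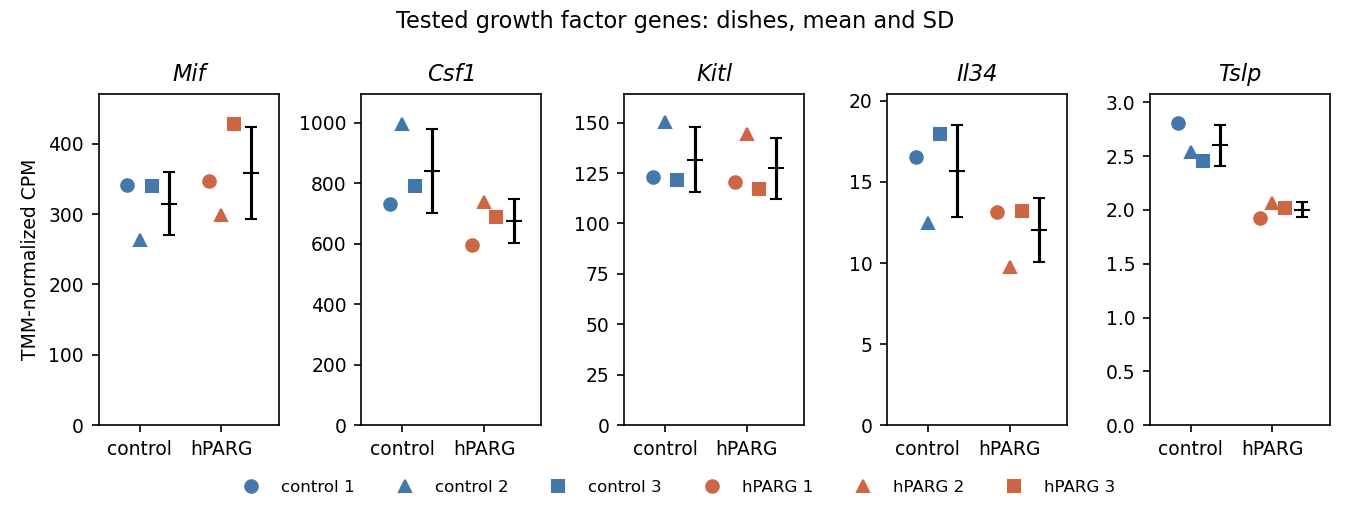
TMM-normalized CPM of the 5 tested growth factor genes in each dish, with control in blue and hPARG in orange, a symbol for each dish number, and the mean with its SD (n = 3) as a black bar; each panel starts at 0. In each group Csf1 and Kitl are highest and Il34 and Mif lowest in the dishes numbered 2 (triangles). Tslp alone shows no overlap between 2.45 CPM, the lowest control dish, and 2.06 CPM, the highest hPARG dish.

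Across the members, 5 of the 8 passed the filter on low counts. By edgeR's quasi-likelihood test 0 of these 5 passed an FDR of 0.05, where 10 of all 11509 tested genes did (0.0869%), each of those 10 by more than 2-fold. At an unadjusted p under 0.05 there were 0 members by this test, against 3.95% of all tested genes, and likewise 0 and 0 by edgeR's likelihood ratio test, against 0.565% of genes past the FDR and 4.14% at an unadjusted p under 0.05. DESeq2 gave 0 at the FDR, against 0.452% of genes, and 1 (Csf1) unadjusted, against 4.05%. The quasi-likelihood test gave 1 unadjusted without the filter (Il34, against 3.11% of genes) and 1 with library size alone (against 4.08%). With single dishes left out it gave 1 without control dish 2 (against 4.95%), 1 without hPARG dish 2 (against 3.84%) and otherwise 0. With a term for the dishes numbered 2, a model chosen after the data were seen, 0 of the 5 passed against 1.53% of tested genes, with 3 (Csf1, Il34 and Mif) at an unadjusted p under 0.05, as were 14.9% of genes. Without both dishes numbered 2, 0 passed against 0.345% of tested genes, with 2 (Csf1 and Il34) at an unadjusted p under 0.05, as were 6.78% of genes. With the replicate number as a block, 2 (Csf1 and Il34) passed, against 2.87% of tested genes. The numbers were not taken as pairs, for the reason given below under the dependence on processing. The intervals bound what these dishes can show: over all dishes, Csf1 lay between 0.633-fold and 1.02-fold of control, Il34 between 0.576-fold and 1.03-fold, Tslp between 0.569-fold and 1.04-fold, Kitl between 0.784-fold and 1.19-fold and Mif between 0.875-fold and 1.48-fold.

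**Figure D3:**
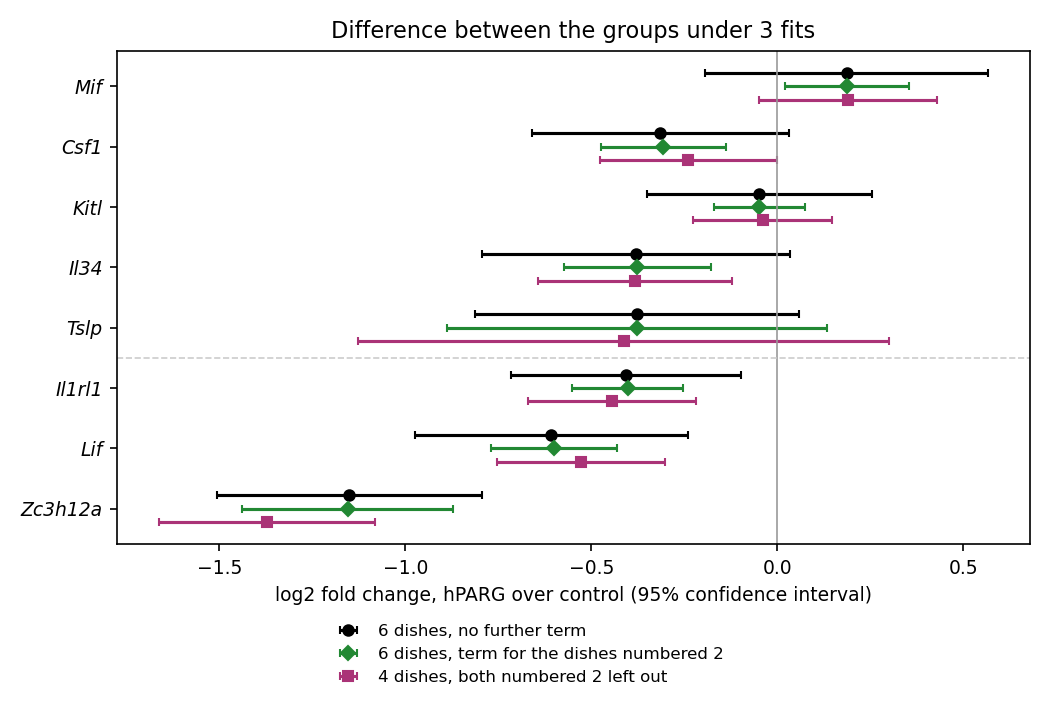
Log2 fold change of hPARG over control with its 95% confidence interval for the 5 tested members (above the dashed line) and Il1rl1, Lif and Zc3h12a (below it), over all 6 dishes (black), with a term for the dishes numbered 2 (green) and without both of those dishes (purple). The members lie between -0.41 and 0.19, and Zc3h12a, at -1.15 over all dishes, is the furthest from 0.

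The receptors and partners of these signals were described as a list of 18 genes. Of these, 8 passed the filter on low counts and 8 did not exceed the floor in any dish. The receptors that mark the responding blood cells were at or near the floor. Csf1r did not exceed 8 counts, Kit 3 counts, and Csf2ra 2 counts in any dish. Csf2rb, Csf2rb2, Csf3r and Cxcr4 had at most 2 counts, and Il7r and Cxcr2 had 0 in all dishes. Ptprz1, a further receptor of IL-34, had between 3 and 18 counts. By contrast Cd44 (57.3 to 76.8 RPKM), Sdc1 (34.3 to 40.5 RPKM), which binds IL-34, and Crlf2 (15.1 to 21.7 RPKM) were well expressed. Cd74, Ackr3, Il1rap and Ddt, a homologue of Mif, were also tested and none of the 4 passed. Cd74 was low, with 5 to 20 counts in a dish (0.143 to 0.582 RPKM). Il1rap had a log2 fold change of -0.50 over all dishes (SE 0.213, unadjusted p in the edgeR fit 0.048, FDR = 0.999). With the term for the dishes numbered 2 it was -0.48 (FDR = 0.258), and without these dishes -0.74 (FDR = 0.292).

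Il1rl1, which encodes the IL-33 receptor ST2 and is long known as a growth-induced gene of 3T3 cells, was the most abundant gene of the list, at a level per length near that of Csf1. Its RPKM was 158, 133 and 161 in control and 119, 104 and 111 in hPARG dishes 1 to 3. Each hPARG dish lay below each control dish. In CPM this held for 1 of the 8 tested genes of the list, against 6.00% of all tested genes. The log2 fold change was -0.41 (SE 0.134, FDR = 0.976) over all dishes, -0.40 (SE 0.0683, FDR = 0.0115) with the term for the dishes numbered 2, and -0.44 (FDR = 0.160) without these dishes. It was the single gene of the list called in any of these 3 fits. The call came with the term, where 1.53% of all tested genes passed. The ST2 ligand gene Il33 stayed near the floor, and gene counts do not part the soluble form of ST2 from the membrane form. The median log2 fold change of the 8 tested genes of the list was -0.11, beside 0.0038 over all tested genes. Of these 8, 3 were higher, 5 lower and 0 past the FDR over all dishes. In that fit 2 (Il1rl1 and Il1rap) were at an unadjusted p under 0.05, against 3.95% of all tested genes.

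**Figure D4:**
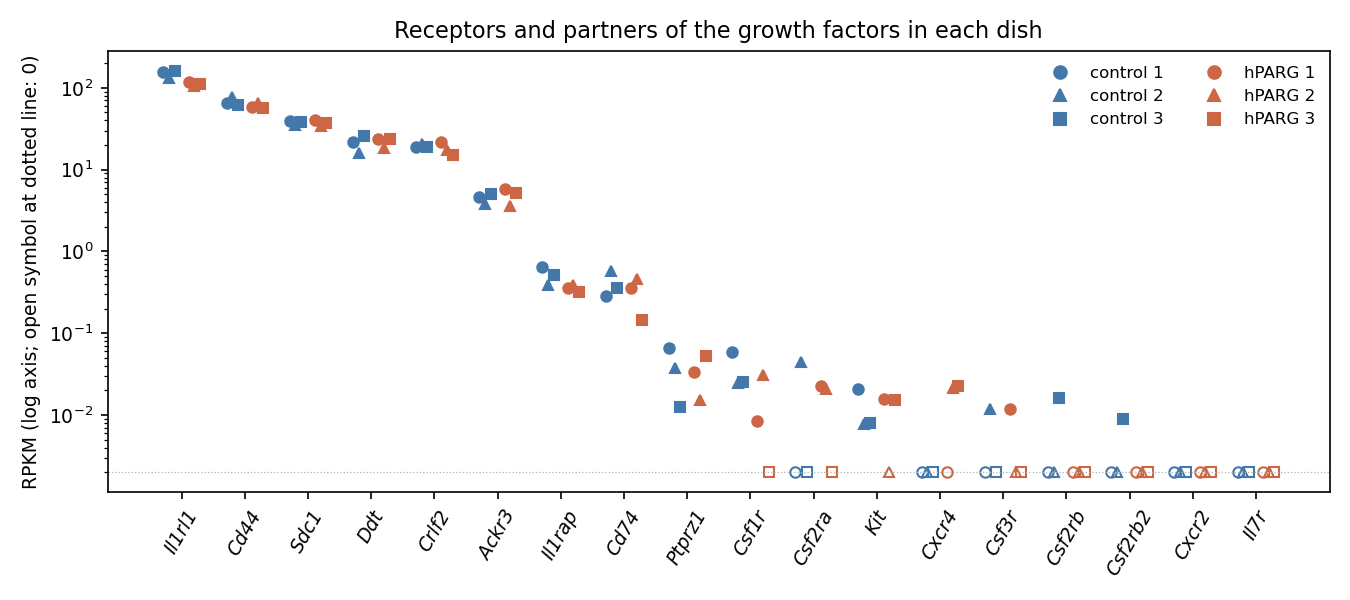
RPKM of the 18 receptors and partners in each dish on a log axis, ordered by mean level, with control in blue and hPARG in orange; an open symbol on the dotted line marks a value of 0. Il1rl1 leads the list at 104 to 161 RPKM, and the myeloid receptors on the right lie at or near 0.

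Of 12 other haematopoietic cytokines, 5 were tested (Lif, Il11, Il15, Flt3l and Thpo), and Il3 and Epo were at 0 in all dishes. Lif, a cytokine of the IL-6 family, was the most abundant, at 10.0, 14.5 and 10.2 RPKM in control and 6.49, 8.49 and 7.24 RPKM in hPARG dishes 1 to 3. All hPARG dishes lay below all control dishes, which in CPM held for 1 of the 5, against 6.00% of all tested genes. Its log2 fold change was -0.61 (SE 0.158, FDR = 0.713) over all dishes, -0.60 (SE 0.0781, FDR = 0.00164) with the term for the dishes numbered 2 and -0.53 (FDR = 0.0569) without them. Over all dishes 0 of the 5 passed (1 at an unadjusted p under 0.05, against the same 3.95%), 3 were higher and 2 lower, and their median log2 fold change was 0.091. With the term for the dishes numbered 2, 1 passed (Lif), against 1.53% of all tested genes.

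Many cytokine transcripts, Csf2 among them, are short-lived because proteins bind AU-rich or stem-loop elements in them, and 11 proteins that bind such elements were listed. They act in different ways, and Elavl1, which stabilizes transcripts, and Tia1 and Tial1, which mainly repress translation, are among them. All 11 were tested. Zfp36l2 was the most abundant (98.4 to 165 RPKM) and had a log2 fold change of -0.17 (SE 0.156, FDR = 0.999). Zc3h12a, which encodes the ribonuclease regnase-1, stood at 6.07, 5.25 and 5.43 RPKM in control and 2.16, 3.05 and 2.18 RPKM in hPARG dishes 1 to 3. The groups did not overlap. In CPM 1 of the 11 was lower in all hPARG dishes, against 6.00% of all tested genes. Its log2 fold change was -1.15 (SE 0.154, FDR = 0.062) over all dishes, -1.15 (FDR = 0.000559) with the term for the dishes numbered 2 and -1.37 (FDR = 0.000245) without them. The study itself listed Zc3h12a as lower from these same libraries, so this is not independent evidence of its direction. In the study's own fit, made in CLC Genomics Workbench, it passed an FDR of 0.05 and 2-fold. It did not pass that FDR in the fit over all dishes here. Over all dishes 0 of the 11 passed (1 at an unadjusted p under 0.05, against the same 3.95%), 3 were higher and 8 lower, and their median log2 fold change was -0.033. With the term, 1 passed (Zc3h12a), against 1.53% of all tested genes, and without the dishes numbered 2 also 1, against 0.345%.

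Of the 8 fibroblast markers, 0 passed over all dishes (4 at an unadjusted p under 0.05, against 3.95% of all tested genes). In this fit 7 were higher and 1 lower, with a median log2 fold change of 0.34, beside 0.0038 over all tested genes. With the term for the dishes numbered 2, 4 passed as higher in hPARG cells (Col1a1, Col3a1, Thy1 and Fn1) and 1 as lower (Pdgfra), against 1.53% of all tested genes past the FDR, and without these dishes 1 passed as higher (Col1a1), against 0.345%. Their summed level was 6918, 7848 and 6116 CPM in control and 7464, 8956 and 7084 CPM in hPARG dishes 1 to 3. Their part in the differences of the growth factor genes was not tested.

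Over all dishes without a further term, Il34 had the smallest unadjusted p among the members in the edgeR fit (0.068, beside 0.0687 for Csf1). The 5 tested genes whose log2 CPM followed it most closely over the 6 dishes were Wdr4 (Pearson's r = 0.997), Rprd1a (0.992), Nup85 (0.992), Msantd2 (0.991) and Cenpl (0.991). Like Il34, each of them was lowest in hPARG dish 2 and highest in control dish 3. These r values are a description over 6 dishes picked from 11509 genes and carry no p. Among the other members, r with Il34 was 0.58 for Tslp, 0.32 for Mif, -0.000186 for Csf1 and -0.62 for Kitl. The dishes numbered 2 were high in Csf1 and low in Il34. In the other 4 dishes both genes were highest in control dish 3, then in control dish 1, and lower in hPARG dishes 1 and 3. Between those hPARG dishes Csf1 was higher in dish 3, and Il34 stood at 13.2 CPM in each.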

How the data were processed

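The authors trimmed reads of poly(A) libraries and mapped them to GRCm38 with the Ensembl annotation in CLC Genomics Workbench. The deposited counts are whole numbers per gene without normalization. The deposited RPKM values are the authors' counts per gene length and library total, neither of which is stated, and served for levels between genes. Columns with the authors' own fold changes, p-values and FDR, and their TPM and CPM, were not used. Coordinates are from GENCODE M21. Total counts were 25263818, 22512587 and 21619908 in control and 22136902, 23897120 and 22482282 in hPARG dishes 1 to 3.

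Genes were kept with filterByExpr (minimum count 10) in edgeR 4.0.16 (R 4.3.3), scaled by TMM, and hPARG was tested against control with glmQLFit and glmQLFTest, without a block. FDR is Benjamini-Hochberg over 11509 genes, and SE is the absolute log2 fold change over the square root of F. Fits were tested on simulated data. With 3 dishes against 3, an exact permutation test cannot go below p = 0.1.

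The members and gene lists were chosen with earlier results of these data known. Named are all members, every receptor, the most abundant gene of each list, listed genes past an FDR of 0.05 in the fit with or without replicate number, and the 5 genes most like the member with the smallest p (log2 of CPM plus 0.5). Other genes were named after their values were seen. Alternatives were DESeq2 1.42.0, the likelihood ratio test, RLE factors, library size alone, a filter of 10 counts in each dish, none at all, the replicate number as a block, each dish left out, both dishes numbered 2 left out, and, added after seeing the data, a term for the dishes numbered 2.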

Additional observations from a re-analysis of the deposited data

How the results depend on the processing

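The log2 fold changes of Csf1, Il34, Mif and Tslp kept their sign under every alternative run. That of Kitl was 0.058 without control dish 2 and 0.0085 without hPARG dish 3 (the cause was not tested). With single dishes left out, Kitl lay between -0.15 and 0.058, Csf1 between -0.40 and -0.17, Il34 between -0.52 and -0.25, Mif between 0.039 and 0.30 and Tslp between -0.42 and -0.31, and 0 members passed. The order of the levels was the same with counts scaled to exon length and library total, with 5 pairs of neighbours apart.

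With a replicate block (the number in the labels as a term), 330 of 11509 genes (2.87%) passed an FDR of 0.05 and 23 also the 2-fold threshold. Of the members 2 passed, Csf1 at -0.31 (FDR = 0.0134) and Il34 at -0.38 (FDR = 0.0494), and over the alternatives run their FDR ranged up to 1. Of the receptors and partners, the other cytokines and the element-binding proteins 1 gene each passed (Il1rl1, Lif and Zc3h12a). Deviations from the group means correlated between same-numbered dishes with r = 0.0963, 0.61 and 0.168 for numbers 1, 2 and 3. The dishes numbered 2 matched each other best, whereas those numbered 1 and 3 matched the opposite number best, and the numbers were not taken as pairs.

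The number of genes past the FDR, 10, was 52 with DESeq2, 65 with the likelihood ratio test, 16 without a filter, 176 with the term for the dishes numbered 2 and 40 without these dishes. Those also past 2-fold numbered 22, 30, 16, 22 and 19. Both numbers lay between 3 and 13 with each dish left out, with 3 without hPARG dish 1 and 5 without hPARG dish 3. With the term, 1 gene passed in each of the lists of receptors and partners, other cytokines and element-binding proteins. Of the proteins that bind AU-rich or stem-loop elements, 1 (Zc3h12a) passed with DESeq2, the likelihood ratio test, no filter, or without both dishes numbered 2, and between 0 and 1 with each dish left out. Csf2, Csf3 and Il33 did not exceed 5, 1 and 9 counts.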

Other observations

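The dishes numbered 2 deviated from the other 2 dishes of their group in opposite directions for different members. On the log2 CPM scale the deviation was 0.39 in control and 0.21 in hPARG for Csf1 (5281 exon bases), and 0.30 and 0.28 for Kitl (5911 exon bases). It was -0.37 and -0.36 for Mif (745 exon bases), -0.47 and -0.43 for Il34 (1959 exon bases), and -0.048 and 0.064 for Tslp (1331 exon bases). Among the genes named beside them it was -0.33 and -0.19 for Il1rl1 (6894 exon bases), 0.44 and 0.26 for Lif (4350 exon bases) and -0.20 and 0.44 for Zc3h12a (2882 exon bases). The median over tested genes was 0.011 and 0.024, at a median of 4548 exon bases.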
